A study of Mus musculus with 4 samples.

Results

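The transcripts described here are those of 10 genes that make, load and break down heme, the iron-porphyrin group of hemoglobin and of many enzymes. They were the globins Hba-a1 and Hbb-b1, the synthesis enzymes Alas1, Alas2, Urod, Cpox and Fech, and the breakdown enzymes Hmox1, Hmox2 and Blvrb. The genes were chosen by name, with earlier results of these data known, so their differences are given as a description and without a test. On the array they were covered by 15 probes, matched by transcript accession, and they were 10 of 18749 genes that could be named. 9 of the 10 were well above background on all 4 arrays, and Alas2 was not so on any of them.

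RNA was read from T helper cells grown from naive CD4 T cells of the spleen of C57BL/6J mice, labelled female, with no age in the labels. One genotype was Bach2 WT and the other Bach2 KO, in which Bach2flox/flox mice carried the CD4-Cre transgene. This transgene drives recombination in T cells as they develop. All cells had first been activated for 2 days through the T cell receptor (anti-TCR-β, 3 μg/ml) and CD28 (anti-CD28, 1 μg/ml), then rested for 3 more days, with IL-2 at 2.5 ng/ml. Each genotype was read either at that point or after 4 h on immobilized anti-TCR-β mAb without added IL-2. There was 1 array for each of the 4 conditions, so no difference has a replicate check. Whether RNA of several mice was pooled, and whether the WT mice carried CD4-Cre, is not given in the labels. In such bulk samples, fewer cells of a type and less RNA per cell cannot be told apart.

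Heme is built in a pathway that starts in the mitochondrion with the condensation of glycine and succinyl-CoA by an ALA synthase, Alas1 in most cells and Alas2 in developing red cells. It passes through cytosolic steps that include Urod, and it returns to the mitochondrion, where Cpox and Fech act and Fech inserts the iron. Heme oxygenases open the ring and release iron, carbon monoxide and biliverdin, which biliverdin reductases convert to bilirubin. Bach1 and Bach2 are repressors that bind heme and then leave DNA, and Hmox1 is the best known gene that Bach1 holds down.

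Spots are given as the scanner's background-corrected intensity, called the signal. Differences are given on the log2 scale after each array was set to its own 75th percentile, which lay at 436 for WT and 434 for KO cells before re-stimulation and at 313 and 353 after it. Signals of re-stimulated cells are therefore somewhat lower throughout, and the differences are corrected for that. The error after ± is 1 SD as modelled by the scanner's software for the spots of an array, about 10% for bright spots, and it does not cover variation among animals, cultures or hybridizations. The spread between different probes of one gene had a median SD of 0.088 for the genotype difference before re-stimulation and 0.11 after it, over 3852 genes. Signals of different probes are not compared with each other.

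The genotype labels could not be checked on the probe for Bach2, whose signal was 2932 in WT and 2633 in KO cells before re-stimulation and 3310 and 3080 after it. Its position relative to the floxed exon is not known here. Both KO arrays carried the Y-linked transcripts Eif2s3y, Ddx3y and Kdm5d, which were not well above background on either WT array, although all mice are labelled female. The paper of this study states that mice of both sexes served for its in vitro work. Eif2s3y had a signal of 1185 before and 951 after re-stimulation on the KO arrays. The X-linked Xist was well above background on all 4 arrays, at 9524 in WT and 4623 in KO cells before and at 5221 and 2585 after re-stimulation, differences of -1.04 and -1.19. The KO arrays thus held both Xist and Y-linked transcripts. Sex and genotype cannot be told apart on these arrays. All 12 T cell markers examined were well above background on all 4 arrays, with none past 2-fold in any comparison. Over all genes measured, from 2.83% to 13.7% were past 2-fold in a given direction and comparison.

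Windows of the GRCm38.p6 assembly from RefSeq, from 250 bases before to 50 after the start of transcription, are shown for the pair of globin genes, whose differences between the genotypes had opposite signs, and for Blvrb, which was lower in both states. Capitals mark matches, on either strand, to the GATA core GATAA, which the red cell factor Gata1 recognises, and to the core of the antioxidant response element TGACNNNGC, which Bach and Nrf2 factors share. The beta globin probes carry an accession that RefSeq now names Hbb-bt.
Hba-a1, chr11:32283422-32283721, plus strand: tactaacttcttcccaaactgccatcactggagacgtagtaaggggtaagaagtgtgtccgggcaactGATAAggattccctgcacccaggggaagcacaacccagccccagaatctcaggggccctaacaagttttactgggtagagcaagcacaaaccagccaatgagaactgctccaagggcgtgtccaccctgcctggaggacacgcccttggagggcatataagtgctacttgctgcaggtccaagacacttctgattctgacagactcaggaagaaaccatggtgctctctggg
Hbb-bt, chr7:103813874-103814173, minus strand: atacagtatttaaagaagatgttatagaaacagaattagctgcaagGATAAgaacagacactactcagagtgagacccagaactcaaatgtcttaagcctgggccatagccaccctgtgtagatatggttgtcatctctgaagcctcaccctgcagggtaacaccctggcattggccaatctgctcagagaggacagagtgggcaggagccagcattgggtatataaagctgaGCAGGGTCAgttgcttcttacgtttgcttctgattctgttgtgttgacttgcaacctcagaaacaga
Blvrb, chr7:27447728-27448027, plus strand: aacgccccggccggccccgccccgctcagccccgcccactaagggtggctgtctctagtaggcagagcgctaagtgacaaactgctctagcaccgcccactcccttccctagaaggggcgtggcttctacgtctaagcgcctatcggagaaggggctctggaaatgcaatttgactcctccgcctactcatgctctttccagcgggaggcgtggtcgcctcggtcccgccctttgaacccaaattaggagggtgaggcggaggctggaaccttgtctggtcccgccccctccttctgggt
GATAA was found once in the Hba-a1 window, starting at base -182 from the start of transcription, and once in the Hbb-bt window, at -204. The Blvrb window held none. Of the 12 windows of the genes searched, 5 held a match, in Cpox, Alas2 and Hmox2 besides the globins. A match to GATAA was present in 25.4% of all 32851 windows of this length. TGACNNNGC was found in the Hbb-bt window alone among the 12 windows of 8 of the genes, and in 12.4% of all windows. Hmox1 and Fech were not searched. The AP-1 core TGANTCA, which can overlap the antioxidant element, was in none of the 12 and in 7.81% of all windows. A match is a description of these letters and not evidence that a factor binds.

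Hba-a1, the alpha chain of adult hemoglobin, was the member that differed most between the genotypes. Its signal was 8684 in WT and 1505 in KO cells before re-stimulation, and 4599 and 1010 after it. Both WT arrays were thus above both KO arrays. The log2 difference, KO minus WT, was -2.52 ± 0.20 before and -2.36 ± 0.20 after re-stimulation, 5.74-fold and 5.14-fold lower. Of all genes measured, 0.14% had a value this low in unstimulated and 0.373% in re-stimulated cells. Only 1 probe measured Hba-a1, and Hba-a2, which has a nearly identical transcript, had no probe of its own, so the signal may come from either gene.

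Hbb-b1, the beta chain, differed in the other direction. Its brightest probe gave 78.4 in WT and 113 in KO cells before re-stimulation and 42.2 and 109 in re-stimulated cells. The log2 difference was 0.54 ± 0.22 before re-stimulation and 1.19 ± 0.25 after it, the latter 2.28-fold higher in KO cells. Its probes disagreed in size and, after re-stimulation, in sign. In unstimulated cells the 3 probes well above background ran from 0.065 to 0.54, and in re-stimulated cells from -0.0077 to 1.19. The further probe stayed under that limit on all 4 arrays, and with it in the mean the values were 0.70 and 0.76. Transcripts of the beta globin family are alike in sequence, so a probe may read several of them.

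**Figure D1:**
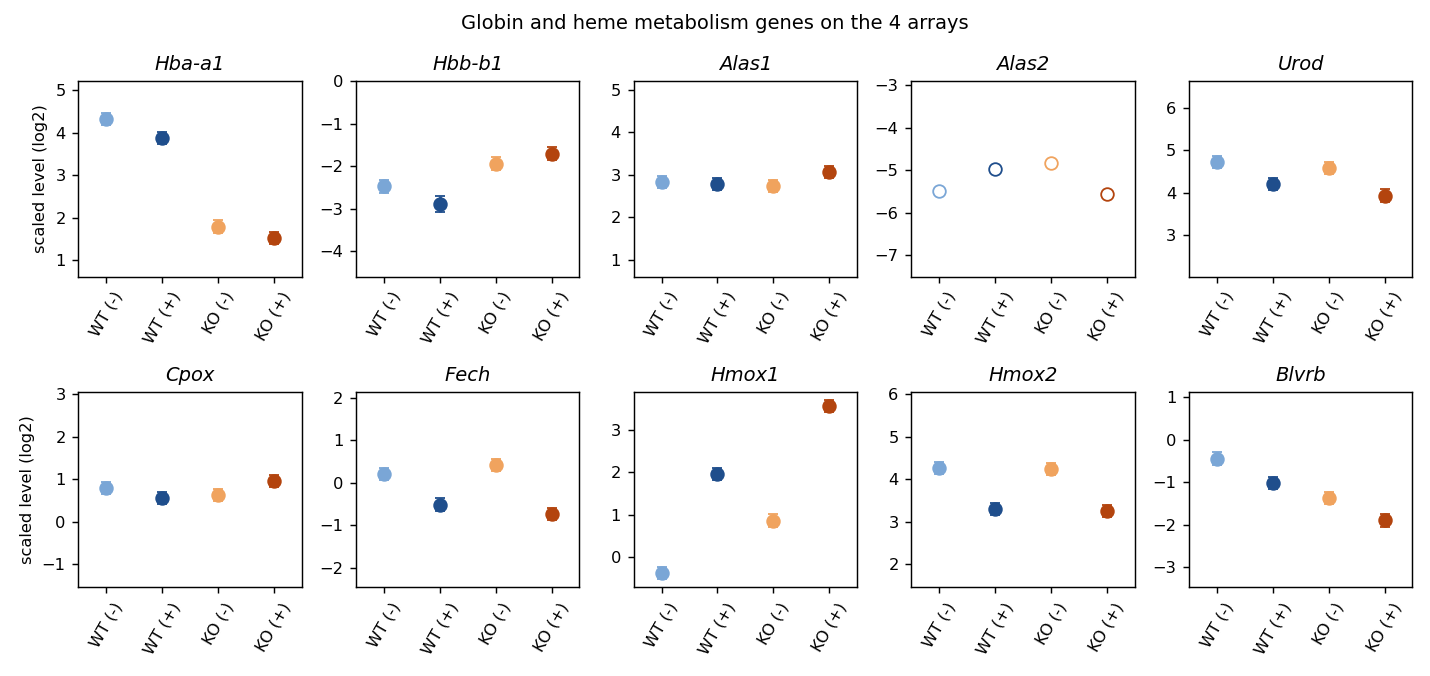
Level of each of the 10 genes on the 4 arrays, as log2 signal minus the array's 75th percentile (vertical axis, the same span in every panel), for WT and Bach2 KO cells before (-) and after (+) re-stimulation. Bars are 1 SD as modelled by the scanner's software and open circles are not well above background. Hba-a1 lay lower on both KO arrays, Hmox1 was lowest in WT cells before and highest in KO cells after re-stimulation, and Alas2 was open on all 4 arrays.

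Since globin mRNA is the mark of red cells and their precursors, markers of these cells were examined. Of 19 erythroid markers with a probe, 6 were well above background on all 4 arrays and 8 on none. Among the 8 were the globin activator Klf1, the membrane skeleton gene Epb42, and Rhag and Ermap. Alas2, the red cell ALA synthase and a member of the set, had signals between 7.43 and 15.1 and was likewise not well above background. Gata1, the master regulator of red cells, which lies on the X chromosome, did have a clear signal. It was 1028 in WT and 452 in KO cells before, and 358 and 107 after, re-stimulation. The differences were -1.18 ± 0.20 and -1.91 ± 0.21, in the direction of Hba-a1 in both states. Hemgn, a nuclear protein of red cell precursors, gave 1616 and 887 before and 249 and 84.9 after re-stimulation on its brightest probe, differences of -0.86 and -1.72. A second probe of Hemgn gave -1.03 before but 0.61 after re-stimulation. Epor, the erythropoietin receptor, differed by 0.42 before and -0.51 after re-stimulation. Kel, a blood group protein, was above background on the KO array before re-stimulation alone, with a signal of 33.6. The level of the 19 markers, summed over the scaled signals as multiples of the 75th percentile, was 6.93 in WT and 4.17 in KO cells before, and 3.14 and 1.69 after, re-stimulation. Gata1 and Hemgn made up most of these sums. Without them, an alternative chosen after seeing the data, the other 17 markers summed to 0.867 in WT and 1.08 in KO cells before, and to 1.20 and 1.14 after, re-stimulation. Before re-stimulation 10 of the 19 could be compared, 6 of them above 0 and 4 below, with a median of 0.19. In KO cells 2 were at least 2-fold higher, Kel and Sptb, and 1 lower, Gata1, beside 5.27% and 2.83% of all genes measured. Of the 10 values, 4 were bounds. Kel, Sptb and Rhd were well above background on the KO array alone, so their values could only lie above 0. After re-stimulation 3 of 8 were above 0 and 5 below, and the median was -0.18. There 0 were at least 2-fold higher and 2 lower, Gata1 and Hemgn, beside 5.17% and 3.86% of all genes measured. The part that red cell precursors have in the Hba-a1 signal was not tested.

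**Figure D2:**
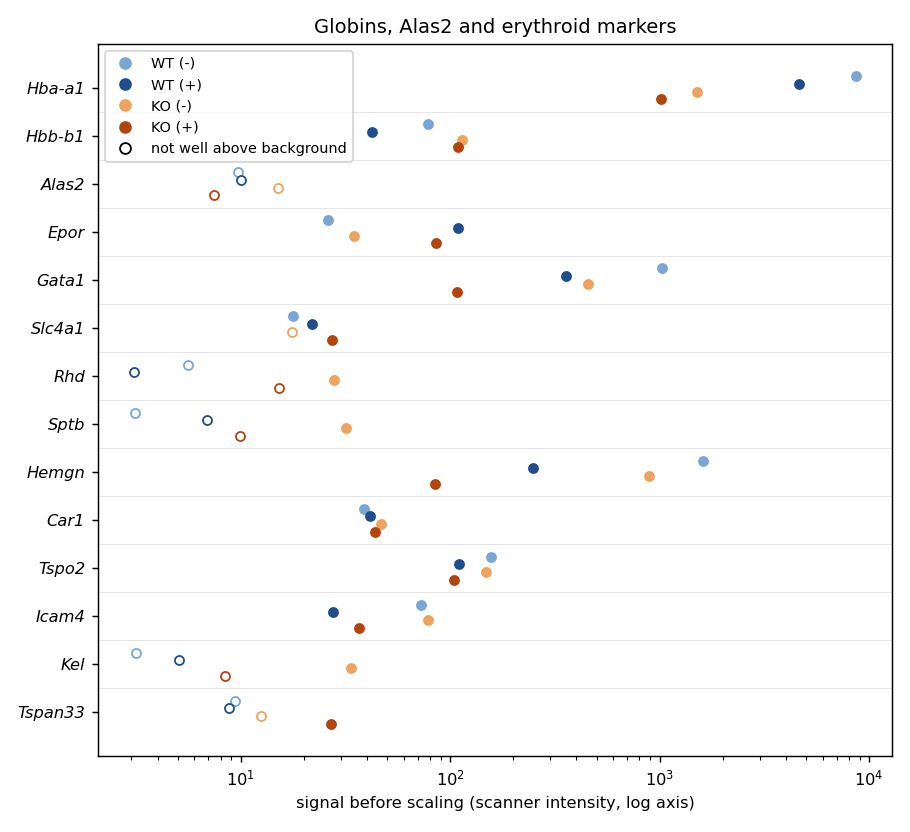
Signal before scaling (horizontal log axis) of Hba-a1, Hbb-b1, Alas2 and the 11 erythroid markers well above background on at least 1 of the 4 arrays, WT in blue and Bach2 KO in orange, before (-) and after (+) re-stimulation, with open circles not well above background. Gata1 and Hemgn, on its brightest probe, shared the order of Hba-a1 between the genotypes in both states, whereas Epor, Car1, Icam4 and Kel were higher in KO cells before re-stimulation, and Alas2 was open on all 4 arrays. Positions of different genes are not to be compared, since each has its own probe.

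Alas1, the first and rate-limiting enzyme of heme synthesis outside red cells, had signals of 3121 in WT and 2906 in KO cells before re-stimulation and 2145 and 2966 after it. Its genotype difference was -0.096 ± 0.20 before and 0.29 ± 0.20 after re-stimulation, and its second probe gave -0.25 and 0.35. With scaling to the Cd3e probe the first of these values was 0.041. The fold was 1.07 and 1.23, so Alas1 was well inside the 2-fold limit.

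Urod, which removes the carboxyl groups of the porphyrin ring's acetate side chains, gave 11498 and 10340 before and 5745 and 5378 after re-stimulation, differences of -0.15 and -0.27. Cpox, which acts next in the mitochondrion, gave 752 and 671 before and 458 and 685 after re-stimulation, differences of -0.16 and 0.40. Fech, which inserts iron to complete heme, gave 502 and 578 before and 219 and 213 after it on its brightest probe, differences of 0.21 and -0.22. The second probe of Fech gave -0.11 before re-stimulation, the opposite sign. None of these enzymes of synthesis reached 2-fold between the genotypes.

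Other genes of heme synthesis behaved likewise. Of 12 such genes, among them the enzymes Alad, Uros and Ppox and the mitochondrial carriers Slc25a38 and Slc25a37, all 12 were well above background on all arrays and 0 were past 2-fold between the genotypes in either state. Over all genes measured, 5.27% were at least 2-fold higher and 2.83% lower before, and 5.17% and 3.86% after, re-stimulation. The median of these 12 was 0.013 in both states, beside -0.0044 and 0.016 over all genes measured.

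Hmox1, the inducible heme oxygenase, was higher in KO cells in both states. Its signal was 338 in WT and 793 in KO cells before, and 1215 and 4166 after, re-stimulation. The lowest signal was that of WT cells before and the highest that of KO cells after re-stimulation, and KO cells were the higher in each state. The differences between the genotypes were 1.23 ± 0.20 and 1.60 ± 0.20, 2.35-fold and 3.04-fold higher in KO cells. As high or higher were 3.73% of the genes measured before and 2.16% after re-stimulation. Under the alternatives of processing the unstimulated value ran from 1.05 to 1.37 and the re-stimulated one from 1.53 to 1.70. Hmox1 was measured by 1 probe.

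Hmox2, the constitutive heme oxygenase, had signals of 8461 in WT and 8284 in KO cells before re-stimulation and 3092 and 3354 after it. Its genotype differences were -0.024 ± 0.20 and -0.057 ± 0.20, and both turned positive with scaling to Cd3e, at 0.11 and 0.040. Blvrb, biliverdin reductase B, was lower in KO cells, with signals of 322 and 168 before and 155 and 94.7 after re-stimulation. The differences were -0.93 ± 0.21 and -0.88 ± 0.21, 1.90-fold and 1.85-fold lower and just inside the 2-fold limit. As low or lower were 3.16% of genes before and 4.85% after re-stimulation. Blvrb is abundant in red cells. Blvra, the main biliverdin reductase of adult tissues and no member of the set, differed by 0.20 and 0.15.

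At 2-fold, 1 of the 9 members measured, Hmox1, was higher in KO cells before re-stimulation, where 5.27% of 12105 genes were, and 1, Hba-a1, was lower, where 2.83% were. After re-stimulation 2 of 9 were higher, Hmox1 and Hbb-b1, beside 5.17% of 12341 genes, and 1 was lower, again Hba-a1, beside 3.86%. The medians of the 9 members were -0.096 and -0.057, beside -0.0044 and 0.016 over all genes. With scaling to Cd3e the first median was 0.041. At 3-fold, 0 members were higher and 1 lower before re-stimulation, beside 2.49% and 1.05% of genes, and 1 was higher and 1 lower after it, beside 2.23% and 1.38%. Nothing is read from these shares, since the members were chosen with the values known.

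**Figure D3:**
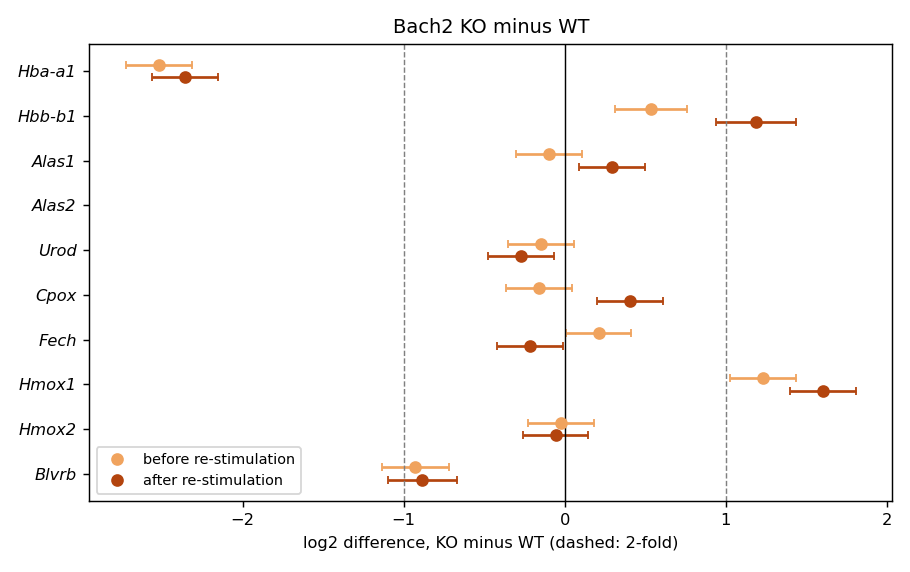
Log2 difference in signal between Bach2 KO and WT cells (horizontal axis) for each gene, before and after re-stimulation, with bars of 1 SD as modelled by the scanner's software and dashed lines at 2-fold. Hba-a1 lay near -2.5 in both states, Hmox1 lay beyond 1 in both, Blvrb lay just inside -1, and the synthesis enzymes lay near 0. Alas2 has no point, being not well above background.

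After re-stimulation Hmox1 was higher, and Hmox2 and Fech were lower, in both genotypes. Hmox1 was 2.32 ± 0.20 higher in WT cells and 2.69 ± 0.20 higher in KO cells on the log2 scale, 5.01-fold and 6.47-fold. The response in KO cells exceeded that in WT cells by 0.37, with a modelled error of 0.29, and this was not tested. Hmox2 was 1.96-fold lower in WT and 2.01-fold lower in KO cells. Fech differed by -0.72 in WT and -1.14 in KO cells, and its second probe gave -0.92 and -0.93. Urod differed by -0.52 and -0.64, Blvrb by -0.57 and -0.53, and Hba-a1 by -0.44 and -0.28. All of these stayed below 0 under each scaling of the arrays.

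Alas1 and Cpox were well inside the 2-fold limit between the states. Alas1 differed by -0.061 in WT and 0.33 in KO cells and Cpox by -0.23 and 0.33. With scaling to Cd3e both were above 0 in WT cells, at 0.24 and 0.063. Hbb-b1 differed by -0.41 in WT and 0.24 in KO cells on its brightest probe, and the probes disagreed in WT cells, from -0.41 to 0.20.

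At 2-fold, 1 of 9 members was higher after re-stimulation in WT cells, beside 13.3% of 12244 genes, and 0 were lower, beside 13.7%. In KO cells 1 was higher, beside 12.5% of 12283 genes, and 2 were lower, Fech and Hmox2, beside 13.1%. The medians of the members were -0.44 and -0.28, beside -0.018 and 0.0024 over all genes. At 3-fold, 1 member was higher and 0 lower in each genotype, beside 6.51% and 4.55% of genes in WT and 5.89% and 4.54% in KO cells. Hmox2 lay on the 2-fold limit, and its side of that limit differed between scalings. Of the 12 other synthesis genes, 1 was at least 2-fold lower in each genotype. It was Abcb10, a transporter of the inner mitochondrial membrane needed for heme synthesis, with -1.32 in WT and -1.27 in KO cells. The median of these 12 was -0.25 in WT and -0.20 in KO cells, and with scaling to Cd3e it was 0.051 and 0.057.

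**Figure D4:**
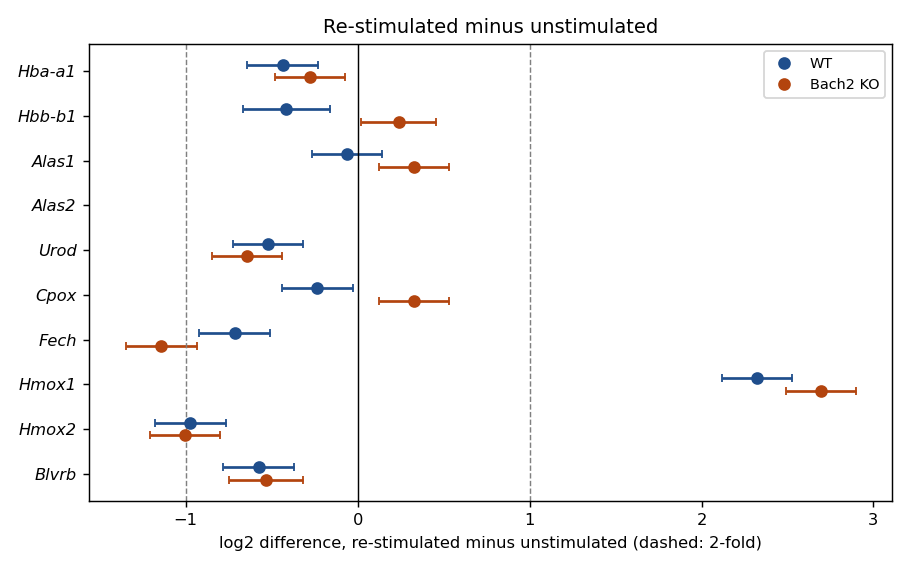
Log2 difference in signal between re-stimulated and unstimulated cells (horizontal axis) for each gene in WT and in Bach2 KO cells, with bars of 1 SD as modelled by the scanner's software and dashed lines at 2-fold. Hmox1 lay beyond 2 in both genotypes, while Hmox2, Fech, Urod, Blvrb and Hba-a1 lay below 0 in both. Alas2 has no point.

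Genes that carry heme or take part in its breakdown were read beside the members. Of 14 with a probe, 10 were measured before and 9 after re-stimulation between the genotypes. In each state 1 was at least 2-fold higher in KO cells, beside 5.27% and 5.17% of all genes measured. Before re-stimulation it was Hebp2, a heme-binding protein, at least 2.10-fold higher, its WT signal being not well above background. After re-stimulation it was Abcg2, an exporter of porphyrins among other compounds, with signals of 128 in WT and 329 in KO cells, a difference of 1.19. Its second probe gave 0.96. Slc48a1, which moves heme out of lysosomes, differed on re-stimulation by -1.29 in WT and by -0.51 in KO cells. With Abcg2, at -1.12, it was 1 of 2 genes of this list at least 2-fold lower in WT cells, beside 13.7% of all genes. The second probes of both were short of 2-fold there, at -0.89 for Slc48a1 and -0.96 for Abcg2. The median genotype difference of this list was 0.15 before and 0.48 after re-stimulation, beside -0.0044 and 0.016 over all genes.

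Oxidative stress genes known as targets of Bach1 and Nrf2, as Hmox1 is, were read beside it. Of 14 oxidative stress genes, 12 were measured before re-stimulation, 10 of them above 0, and 13 after it, 11 of them above 0. At least 2-fold higher were 2 in each state, and 0 were at least 2-fold lower. Over all genes measured, 5.27% and 5.17% were at least 2-fold higher, and 2.83% and 3.86% lower. The medians of the list were 0.43 and 0.36, beside -0.0044 and 0.016 over all genes. Srxn1, which repairs oxidized peroxiredoxins, had signals of 259 in WT and 1600 in KO cells before, and 29316 and 53519 after, re-stimulation. The difference was 2.63 and 0.69. Its 3 probes ran from 2.63 to 2.89 in unstimulated and from 0.59 to 0.70 in re-stimulated cells. Me1, malic enzyme, was at least 3.41-fold higher in KO cells before and 3.39-fold higher after re-stimulation. Slc7a11, the cystine importer, was well above background in re-stimulated KO cells alone, at least 2.07-fold higher. Osgin1, an oxidative stress induced growth inhibitor, differed by -1.72 in WT and -2.29 in KO cells on re-stimulation.

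**Figure D5:**
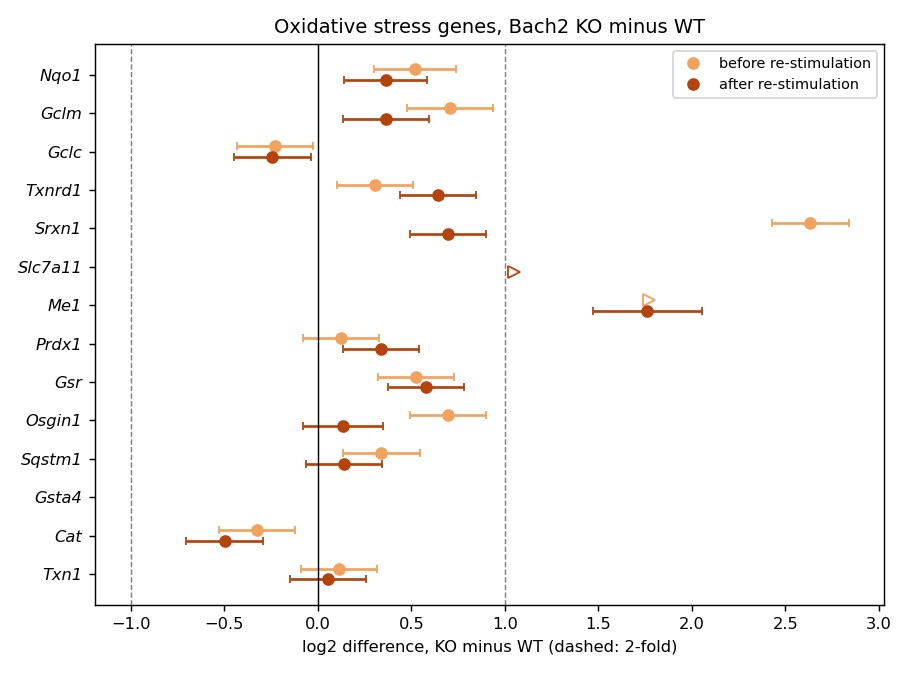
Log2 difference in signal between Bach2 KO and WT cells (horizontal axis) for 14 oxidative stress genes, before and after re-stimulation, with bars of 1 SD as modelled by the scanner's software, dashed lines at 2-fold, and open triangles for lower bounds where WT cells were not well above background. Srxn1 lay at 2.63 before and 0.69 after re-stimulation, Me1 lay near 1.8 in both states, and Gclc and Cat lay below 0 in both. Gsta4 has no point.

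Of 10 Bach and CNC family genes and their partners, 0 of the 10 measured before and 0 of the 9 measured after re-stimulation were past 2-fold. Over all genes measured, 5.27% were higher and 2.83% lower by that much before, and 5.17% and 3.86% after, re-stimulation, so little is read from these counts. Bach1 had signals of 363 in WT and 505 in KO cells before re-stimulation and 460 and 538 after it, differences of 0.48 and 0.050. Nfe2l2, which encodes Nrf2, differed by -0.47 and -0.28. Mafg, a small Maf partner, differed by 0.72 and 0.36. With re-stimulation 3 of the 10 were at least 2-fold higher in each genotype, beside 13.3% of all genes in WT and 12.5% in KO cells. They were Maff, Mafk and Mafg in WT cells, and Maff, Mafk and Nfe2l1 in KO cells. Maff was 4.26 higher in WT and 3.59 higher in KO cells on the log2 scale, and Mafk was 1.37 and 1.05 higher. Nfe2, an erythroid and megakaryocyte member of the family, had signals of 59.1 in WT and 31.7 in KO cells before re-stimulation, a difference of -0.89. It was not well above background once cells were re-stimulated, and in WT cells it was at least 2.92-fold lower then.

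Markers of other cells that express Hmox1 were set beside it. Of 13 macrophage and monocyte markers with a probe, 7 were well above background on none of the 4, among them Itgam, Lyz2, C1qa and Mrc1. Adgre1 had signals of 185 in WT and 410 in KO cells before, and 48.2 and 160 after, re-stimulation. Fcgr3 was well above background on the KO arrays alone, at 36.3 before and 26.5 after re-stimulation, so its values are bounds. Before re-stimulation 3 of 5 markers measured were above 0 and 2 below. At least 2-fold higher were 2, Adgre1 and Fcgr3, beside 5.27% of all genes. After re-stimulation 2 of 3 were above 0 and 1 below. Adgre1 alone was at least 2-fold higher, beside 5.17%. The summed level of the list was 0.773 and 1.36 before and 0.603 and 0.928 after re-stimulation, as multiples of the 75th percentile. Without Adgre1 it was 0.349 and 0.411 before and 0.449 and 0.474 after re-stimulation. Of 14 mast cell and basophil markers, 9 were measured in each state, all with values above 0. At least 2-fold higher in KO cells were 6 and 7 of them, beside 5.27% and 5.17% of all genes measured. Before re-stimulation 5 of the 9, and after it 6, were well above background on the KO array alone. Their values are bounds that could only lie above 0, so nothing is read from their sign. The summed level of that list was 0.724 in WT and 6.83 in KO cells before re-stimulation and 3.60 and 11.8 after it. A large share of it was Il1rl1, the IL-33 receptor, which T helper cells can express too, with signals of 55.3 in WT and 1438 in KO cells before and 629 and 2006 after re-stimulation. Without Il1rl1 the sum was 0.598 and 3.51 before and 1.59 and 6.10 after re-stimulation. These sums without a gene were also chosen after seeing the data. Cpa3 and Mcpt8 were well above background on the KO arrays alone, while Ms4a2, Mcpt4 and Tpsb2 were so on none. In KO cells Cpa3 was at least 22.5-fold higher before and 11.9-fold after re-stimulation, and Mcpt8 at least 20.5-fold and 20.3-fold. Prss34, measured on both arrays before re-stimulation, was 8.96-fold higher then. Cd200r3, measured in both states, was 1.33-fold and 1.27-fold higher. The part of these cells in the Hmox1 signal was not tested. Of the 7 B cell and 8 platelet markers with a probe, 4 each stayed under that limit on all 4 arrays.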

How the data were processed

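Expression was measured on 4 one-colour (Cy3) Agilent arrays from 500 ng of total RNA each, 1 per condition, on 1 slide read in 1 scan. The authors deposited, for each spot, an intensity from Feature Extraction 10.7.3.1 with background subtracted, and flags, among others for spots well above background. A second deposited table holds log2 values, which equal the log2 intensity less a constant per array within 0.01 for at least 41001 of 41173 probes. The medians of its columns lay between -4.09 and -3.77, and the values were not centred per gene.

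Between 107 and 120 uneven or outlying spots per array were left out, spots of a probe were averaged as log2 values, and each array's 75th percentile was taken off. The RefSeq table of GRCm38.p6 gave a gene name to 27479 probes (66.7%). The array was designed on mm9, so no gene coordinates are given beyond the RefSeq windows. A gene was read from its brightest probe, and 6641 genes had more than 1. It counted as measured if at least 1 of the arrays compared was well above background there. A side that was not was raised to the lowest such signal of its array, between 14.5 and 17.2, which gives a bound. No spot was saturated. The number of arrays limits the precision, and no test was made. The 10 genes, the lists and the alternatives were chosen with earlier results of these data known. Of other lists, at most the 4 largest past 2-fold were to be named, with absent defining markers. Bach1, Nfe2l2, Adgre1, Il1rl1, Blvra, Cpa3 and genes named only as list members were added for their role, as were the sex-linked genes and Bach2. C1qb and Cd200r3 were added as markers short of 2-fold between the genotypes. Calls are past 2-fold. The scripts were tested on simulated data. Alternatives covered scaling, normexp correction (offset 50, median spot signals) with quantile normalization, the probe rule, the filter and a 3-fold rule. The tools were R 4.3.3 (limma 3.58.1) and Python 3.11.15 (numpy 2.4.6, pandas 2.3.3, matplotlib 3.10.9).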

Additional observations from a re-analysis of the deposited data

Results flagged for a closer look

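For 4 of the genes a difference went opposite ways in the pair of states or of genotypes, each value being beyond the median spread between probes, and in no case was this tested. Between KO and WT cells, Alas1 differed by -0.096 before and 0.29 after re-stimulation, Cpox by -0.16 and 0.40, and Fech by 0.21 and -0.22. On re-stimulation, Cpox differed by -0.23 in WT and 0.33 in KO cells, and Hbb-b1 by -0.41 and 0.24. The spread used is a median over many genes and not that of these genes' own probes. The second probe of Fech gave -0.11 before and -0.12 after re-stimulation, so it did not change sign. The probes of Hbb-b1 ran from -0.41 to 0.20 in WT cells. The second probe of Alas1, at -0.25 and 0.35, kept both signs, and Cpox had 1 probe. Most of the flagged values are near the modelled error of about 0.20, and each rests on single arrays.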

How the results depend on the processing

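No paired analysis was possible because each condition was read on 1 array, and for the same reason no array could be left out. Single members had 324 values under the alternatives. Of these 262 stayed within the median spread between probes, and 7 had the other sign. For 4 of the 7 the reported value was itself beyond that spread. The 4 were Hbb-b1 on re-stimulation in KO cells, -0.027 with scaling to the median, and in WT cells, 0.061 with the mean over probes, and, with scaling to Cd3e, Alas1 between the genotypes before re-stimulation, 0.041, and Cpox on re-stimulation in WT cells, 0.063. Of 80 counts of members past 2-fold, 70 were within 1.5 times. On re-stimulation in WT cells 2 members were lower with scaling to the median and 1 with quantile normalization. In KO cells 1 was lower with the percentile of probes above background on all arrays and with normexp, and 0 with scaling to Cd3e and at 3-fold. After re-stimulation 1 member, Hmox1, was higher in KO cells with normexp, with the mean over probes and at 3-fold, and before it 0 at 3-fold. The call on Hbb-b1 after re-stimulation was lost at 0.61 with normexp and 0.76 with the mean over probes. The cause was not tested, except that scaling to Cd3e and to the median shift all genes by construction, on re-stimulation by 0.30 and -0.30 in WT cells and by 0.26 and -0.27 in KO cells, and Cd3e by 0.14 between the genotypes before re-stimulation. The share of calls that were higher on re-stimulation was 49.3% in WT and 48.9% in KO cells, 29.1% and 30.8% if scaled to the median, 71.5% and 67.7% if scaled to Cd3e.

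List medians had the other sign in 44 of 468 cases. Those beyond the spread between probes as reported were, with scaling to Cd3e, the members between the genotypes before re-stimulation (0.041) and, on re-stimulation, the other synthesis genes (0.051 in WT and 0.057 in KO cells) and macrophage markers in KO cells (0.047). With no filter and no floor they were erythroid markers between the genotypes after re-stimulation (0.11) and, on re-stimulation, heme transport in WT (0.033) and KO cells (0.079), and in KO cells erythroid (0.34), macrophage (0.35) and B cell markers (0.56). With both arrays well above background it was the other globins in KO cells on re-stimulation (-0.13).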

Other observations

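Genes of iron uptake and storage, which supply and buffer the metal that Fech inserts, were read as a further list. Of 16 with a probe, 13 could be compared between the genotypes in unstimulated cells, where 1 was at least 2-fold higher in KO cells, and 14 in re-stimulated cells, where 2 were. In both states 0 were lower by that much. The shares over all genes measured were 5.27% and 5.17% higher, and 2.83% and 3.86% lower. Tfr2, a second transferrin receptor, had a difference of 1.04 before re-stimulation and was at least 2.33-fold higher after it. Fth1 and Ftl1, the ferritin chains that store iron and are known targets of Bach1, differed by 0.31 and 0.36 before and by 0.41 and 0.53 after re-stimulation. Slc39a14, a metal importer, was higher in KO cells by 0.82 and 0.93 and higher after re-stimulation by 1.55 in WT and 1.65 in KO cells. Slc11a2, an iron transporter, differed by -1.66 in WT cells on re-stimulation on its brightest probe, while another probe, of a further transcript, was higher by 0.95 on the log2 scale.

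Some signals stood on 1 array alone. The embryonic globin Hba-x had a signal of 80.4 and Hamp, the iron hormone hepcidin, one of 91.2 on the array of re-stimulated KO cells, and both were not well above background on the other arrays. Each was measured by 1 probe. Cygb, cytoglobin, had signals of 32.2 in WT and 24.4 in KO cells after re-stimulation and was not well above background before it.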
